A study of Homo sapiens with 4 samples.

Results

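In A549 cells that overexpressed USP12, 62 of the 50868 genes counted passed from near absence in the control libraries to detection in the USP12 libraries. They were selected on the raw counts alone: at most 3 counts in both control libraries and at least 10 in both USP12 libraries, which 66 genes met, and 4 of these (CLDN11, HOXD10, TNFSF12-TNFSF13 and MANCR, listed under a LINC name) were set aside because their names begin with a gene-family prefix left out by the selection. The selected genes were 0.122% of all rows. Because the counts of these 4 libraries chose the genes, their difference between control and USP12 libraries is given below as a description, with no test.

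A549 is an established human lung adenocarcinoma cell line. One group of 2 libraries is labelled control and the other group of 2 libraries is labelled USP12-overexpressed, and the study's methods describe tagged human USP12 cDNA in pLVX lentiviral vectors, with control A549 cells marked as carrying the vector alone. Both groups were made from total RNA of the same cell line with a stranded mRNA library kit. The labels name no treatment besides the overexpression, and neither the labels nor the methods say whether the A549 cells were a pool or a clone, or whether the replicates were separate cultures, so any p-value below measures only the spread between these 4 libraries, which may be technical.

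USP12 encodes a deubiquitinase, an enzyme that removes ubiquitin from other proteins and that gains activity when it is bound by WD40-repeat partner proteins. Every cell line keeps many genes of other tissues silent or nearly so, and in a pool of cells a low read count can stand for a few cells with much RNA or many cells with little. In bulk RNA the number of cells that express a gene and the amount of RNA per cell cannot be told apart.

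The overexpression itself was large. USP12 on chromosome 13 had 201 and 621 counts in control replicates 1 and 2 and 24235 and 32274 counts in USP12 replicates 1 and 2. In CPM, counts per 1000000 of the normalised library size, these were 15.2 and 34.4 against 1745 and 2235. The groups were far apart, with a log2 fold change of 6.32 (SE 0.57), but edgeR's quasi-likelihood test over all genes gave it an adjusted p of only 0.0975, the smallest in the table.

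That test called 0% of 15222 genes at an adjusted p under 0.05, although 1155 had an unadjusted p under 0.05, and DESeq2's Wald test called 133 higher and 273 lower. A looser criterion was therefore used below for genes outside the selection, an unadjusted p of at most 0.05 with a log2 fold change of at least 1 in size. It was met by 2.92% of the genes tested in the higher direction and by 4.41% in the lower direction. Library totals lay between 14280081 and 16305356 counts. The control libraries differed more from each other than the USP12 libraries did, with a standard deviation of the log2 ratio between replicates of 1.32 against 0.62, and the column header of control replicate 1 begins with a different number from the other 3. Without control replicate 1 the selection took in 152 genes, and without control replicate 2 it took in 340 genes. Without USP12 replicate 1 or 2 it took in 144 and 143 genes. Leaving out a library only removes a condition of the selection, so the 62 were bound to be among them each time.

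The 62 genes together held 39 and 70 counts in the controls but 2376 and 2457 counts with USP12 overexpressed. This was 0.0165% and 0.0172% of the USP12 library totals, so the group is a small part of the RNA of these cells. In control replicate 1, 44 of the genes were at 0, and in control replicate 2, 26 were at 0. Both control libraries were at 0 for 21 genes, and the other 41 had between 1 and 6 control counts in all. The USP12 counts were mostly low as well: the lower of the USP12 counts had a median of 16, lay between 10 and 19 for 39 genes, between 20 and 49 for 17 genes, between 50 and 99 for 3 genes, and at 100 or above for 3 genes. CNTNAP2 and GAB3 alone held 30.2% of the USP12 counts on the group.

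**Figure D1:**
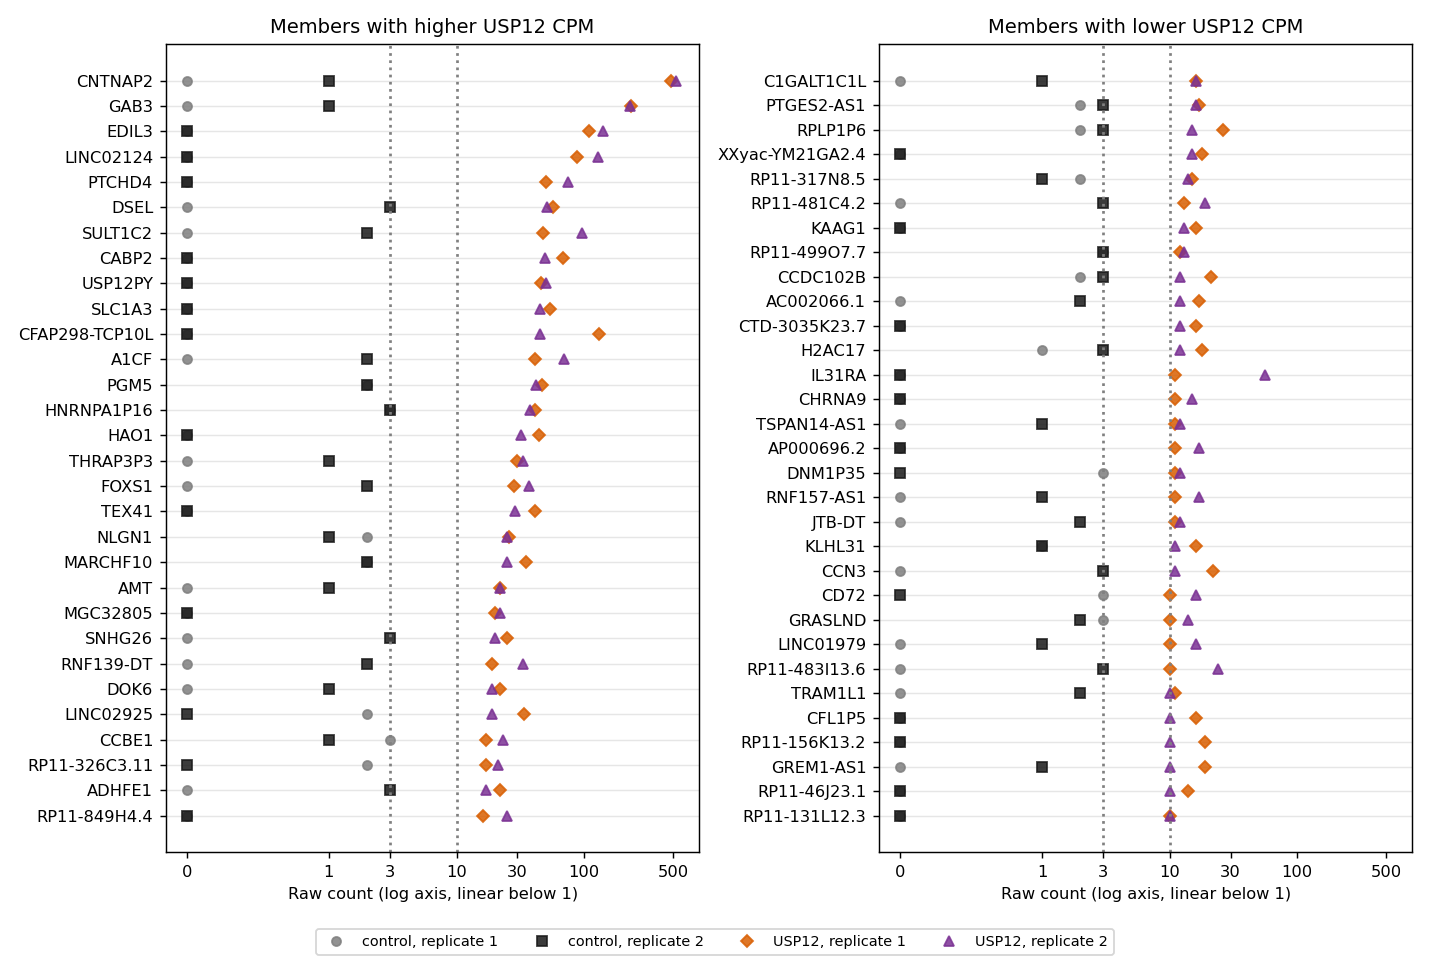
Raw counts of the selected genes, 1 of the 62 not shown, in the 4 libraries, on a log axis that is linear below 1, with genes ordered by the lower USP12 CPM and 1 point per library. Dotted lines mark the limits of 3 and 10 counts used in the selection. CNTNAP2 and GAB3 stand above the rest, and 25 of the 62 genes have a lower USP12 count between 10 and 12, at the edge of the selection.

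How close the limits lie to the values matters for this group. A USP12 count of exactly 10 was the lower value for 10 genes, and 16 genes had a control library at 3. Just outside, 10 further genes had a lower USP12 count of 9, and 18 had a higher control count of 4, both outside the family prefixes. CDH6, a cadherin, was left out at 0 and 4 control counts with 227 and 202 in the USP12 libraries. The clone-named RP11-762I7.5 was left out at 3 and 4 against 123 and 131. DOCK2, a Rac activator of blood cells, had 4 and 4 against 45 and 30. These 3 genes had more USP12 counts than most of the genes inside the limits.

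**Figure D2:**
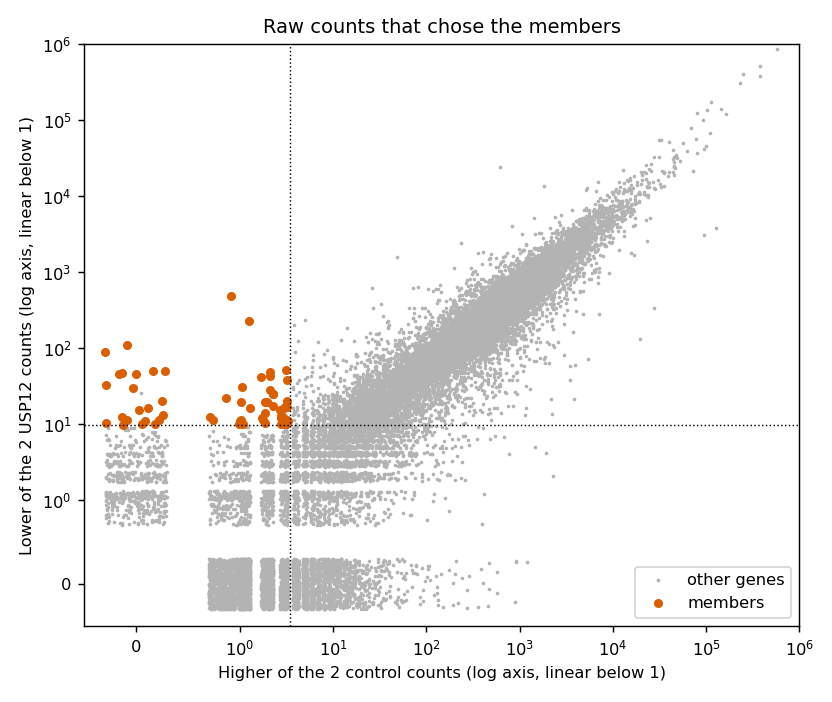
Higher of the 2 control counts (horizontal) against the lower of the 2 USP12 counts (vertical) for all genes with a count, both on log axes that are linear below 1, with small random shifts that separate points below 30 counts. The 62 selected genes are in orange, grey points within both limits are the 4 genes set aside by name, and the selected genes lie at the edge of a cloud that continues across both dotted limits.

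The same jump also occurred between replicates of 1 group. Between the control libraries, 689 genes had at most 3 counts in replicate 1 and at least 10 in replicate 2, and 401 had the reverse. Between the USP12 libraries the corresponding numbers were 218 and 143. Those counts compare 1 library with 1, whereas the 62 genes had to pass in 2 libraries of each group. With the groups exchanged, at least 10 counts in both control libraries and at most 3 in both USP12 libraries, the selection found 81 genes.

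The size of the step is given in 2 ways. Where both control libraries were at 0, the USP12 level was set against a floor of 3 counts over the control group, which gives a lower bound, and where the controls had 1 to 6 counts, the ratio of normalised counts is given with an exact 95% interval that covers counting error only. The 21 bounds ran from at least 7.36-fold to at least 92.0-fold higher. The 41 ratios ran from 4.60 to 1104.

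CNTNAP2 led the group. It encodes a large adhesion protein of the neurexin superfamily, known from the axon, where it helps to gather potassium channels beside the nodes of Ranvier. It lies on the plus strand at chr7:146116002-148420998 (GRCh38) and had 0 and 1 control counts against 477 and 523 USP12 counts. The USP12 libraries agreed within 1.06-fold (95% interval 0.93 to 1.20), at 35.3 CPM ± 1.34 (SD, n = 2), and the ratio to control was 1104 (198 to 43629). In CPM, 67.6% of the genes with at least 10 counts in both USP12 libraries lay below it, so CNTNAP2 passed the middle of the expressed genes, whose median was 18.6 CPM, while the median of the 62 genes was 1.36 CPM.

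GAB3 had the next highest USP12 counts of the group. It encodes a scaffold adaptor of the GRB2-associated binding protein family, which carries signals from receptor tyrosine kinases and is known from macrophages. It lies on the minus strand at chrX:154675249-154751583 and had 0 and 1 control counts against 234 and 227 USP12 counts, or 16.3 CPM ± 0.793 (SD, n = 2), with a ratio of 509 (90.9 to 20136). Per kilobase of exonic sequence GAB3 was at 3.09 CPM and CNTNAP2 at 2.15 CPM, so the order of these genes by level turns round when length is taken into account.

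The promoter sequences of these genes are shown because they differ in CpG content, the feature by which promoters are usually divided. The windows are from RefSeq (GRCh38.p14), run from 250 bases before to 50 bases after an annotated start, are written 5′ to 3′ on the gene's strand, and carry each CpG in capitals. CNTNAP2 has 1 window, at chr7:146116551-146116850 on the plus strand, with 16 CpG and a ratio of observed CpG to the number expected from its C and G content of 0.562. GAB3 has 2 windows on the minus strand, at chrX:154751028-154751327 with 39 CpG and a ratio of 0.833, and at chrX:154751517-154751816 with 7 CpG and a ratio of 0.536.
CNTNAP2: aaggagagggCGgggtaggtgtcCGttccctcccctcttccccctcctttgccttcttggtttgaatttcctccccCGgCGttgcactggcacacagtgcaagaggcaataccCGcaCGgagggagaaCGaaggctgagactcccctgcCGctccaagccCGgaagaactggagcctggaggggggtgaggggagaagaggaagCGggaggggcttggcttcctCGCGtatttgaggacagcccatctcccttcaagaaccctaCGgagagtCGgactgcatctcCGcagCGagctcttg
GAB3, window with 39 CpG: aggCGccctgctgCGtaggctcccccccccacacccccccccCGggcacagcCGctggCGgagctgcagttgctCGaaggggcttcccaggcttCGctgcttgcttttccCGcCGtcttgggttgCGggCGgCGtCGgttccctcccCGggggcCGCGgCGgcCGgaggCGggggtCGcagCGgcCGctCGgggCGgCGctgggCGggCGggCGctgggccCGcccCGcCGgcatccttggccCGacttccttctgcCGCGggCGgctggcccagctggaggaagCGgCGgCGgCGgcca
GAB3, window with 7 CpG: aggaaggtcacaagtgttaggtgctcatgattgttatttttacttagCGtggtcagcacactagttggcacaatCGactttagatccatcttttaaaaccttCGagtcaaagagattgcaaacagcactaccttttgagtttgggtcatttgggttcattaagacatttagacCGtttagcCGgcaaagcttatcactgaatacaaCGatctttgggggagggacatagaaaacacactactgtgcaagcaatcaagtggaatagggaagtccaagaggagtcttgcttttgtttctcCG
The first GAB3 window holds the most CpG of the 3, while the second GAB3 window and the CNTNAP2 window fall below the ratio of 0.6 often used to mark a CpG island.

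Several of the protein-coding genes act at the cell surface or in the matrix. EDIL3, a secreted integrin-binding matrix protein, was at 0 in both controls and had 109 and 141 USP12 counts, at least 92.0-fold higher. NLGN1, a synaptic adhesion protein that binds neurexins, had 2 and 1 control counts against 26 and 25, a ratio of 18.8 (6.07 to 94.0). CCBE1, a secreted factor needed for growth of lymphatic vessels, had 3 and 1 control counts against 17 and 23, and CCN3, a matricellular protein deposited under its older name NOV, had 0 and 3 against 22 and 11. Of these 4, EDIL3 was the clearest, CCBE1 and CCN3 each had a control library at the limit of 3, and CCN3 had a USP12 library at 11. PTCHD4, a membrane protein with a patched domain, was at 0 in both controls and at 50 and 75 with USP12.

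Beside GAB3 the selected genes held other receptors and signalling adaptors. DOK6, a docking adaptor of the RET receptor, had 0 and 1 control counts against 22 and 19. IL31RA, the receptor subunit that binds interleukin-31, was at 0 in both controls and at 11 and 56 with USP12. CHRNA9, a nicotinic acetylcholine receptor subunit, was at 0 and 0 against 11 and 15, and CD72, a co-receptor of B cells, at 3 and 0 against 10 and 16. Apart from DOK6, each of these had a USP12 library within 1 count of the limit of 10.

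The selected genes also held a transporter, several enzymes and an RNA-binding cofactor. SLC1A3, the glutamate and aspartate transporter of astrocytes, was at 0 in both controls and at 54 and 45 with USP12, at least 36.4-fold higher. HAO1, the peroxisomal glycolate oxidase of liver, was at 0 in both controls and at 44 and 32 with USP12, at least 28.0-fold higher. A1CF, an RNA-binding cofactor of apolipoprotein B mRNA editing, had 0 and 2 control counts against 41 and 70, with a ratio of 61.2 (16.6 to 512). In all 3 the USP12 counts were well clear of the limit, and in SLC1A3 and HAO1 the control libraries held no read at all.

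SULT1C2, a cytosolic sulfotransferase, had 0 and 2 control counts against 48 and 96. DSEL, a homologue of dermatan sulfate epimerase, had 0 and 3 control counts against 57 and 51. The mitochondrial enzymes AMT, of the glycine cleavage system, and ADHFE1, a hydroxyacid-oxoacid transhydrogenase, had 0 and 1 against 22 and 22, and 0 and 3 against 22 and 17. Among these 4 genes DSEL and AMT repeated most closely between the USP12 libraries, and SULT1C2 was higher in replicate 2.

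The remaining protein-coding genes had varied roles. CABP2, a calcium-binding protein of sensory cells, was at 0 in both controls and at 68 and 49 with USP12, at least 43.0-fold higher. PGM5, a phosphoglucomutase relative found at adhesive junctions of muscle, had 2 and 2 against 47 and 42, with a ratio of 24.6 (9.26 to 92.1). FOXS1, a forkhead transcription factor, had 0 and 2 against 28 and 37, and MARCHF10, a RING-finger ubiquitin ligase, had 2 and 2 against 35 and 25. C1GALT1C1L, CCDC102B, KLHL31, TRAM1L1 and the histone gene H2AC17 had lower USP12 counts between 10 and 16, near the limit.

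The protein-coding genes were longer than the expressed protein-coding genes taken as a whole. They numbered 29 of the 62, with a median gene length of 57.5 kb against 34.0 kb for the 12365 protein-coding genes with at least 10 counts in both USP12 libraries, and 9 of the 29 (31.0%) spanned more than 200 kb against 7.51% of those genes. The 9 were CNTNAP2, NLGN1, DOK6, EDIL3, CCDC102B, CCBE1, PTCHD4, CFAP298-TCP10L and PGM5. Exonic length was close in both sets, with medians of 5776 and 5458 bases, so the difference lay in the introns. No set of genes with similarly low counts was measured for length, so the length is not read as particular to this group. Protein-coding genes were 46.8% of the 62 and 87.2% of the expressed rows found in GENCODE release 44, whereas long noncoding RNAs, with a few transcripts awaiting experimental evidence, were 27 genes (43.5% against 7.16%) and pseudogenes were 6 (9.68% against 5.57%). These shares were not tested, because rows with few reads are selected by the limits and noncoding genes are mostly low.

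Per kilobase of exonic sequence, the protein-coding genes lay between 0.101 and 3.09 CPM in the USP12 libraries with a median of 0.408, the noncoding RNAs between 0.0926 and 15.8 with a median of 0.593, and the pseudogenes between 1.84 and 5.51 with a median of 2.86. The median of all genes with at least 10 counts in both USP12 libraries was 3.75 CPM per kilobase, so on this scale GAB3, the highest of the protein-coding genes, lay below the middle of the expressed genes. LINC02124, deposited under a clone name, was the highest at 15.8 CPM per kilobase.

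Among the noncoding genes LINC02124 had the most reads, with 0 in both controls and 88 and 129 with USP12, at least 79.8-fold higher. It lies on the plus strand at chr16:1889114-1890434. TEX41, a long noncoding gene on chromosome 2, was at 0 in both controls and at 41 and 29 with USP12. The 27 noncoding genes had a median lower USP12 count of 12, and apart from these 2 none had a lower USP12 count above 20.

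MGC32805 was at 0 in both controls and at 20 and 22 with USP12. SNHG26, deposited under the clone name AC005682.5, had 0 and 3 against 25 and 20, and RNF139-DT, a divergent transcript beside RNF139, had 0 and 2 against 19 and 33. LINC02925 had 2 and 0 against 34 and 19. These 4 were the noncoding genes next in order, and their USP12 counts stayed at 19 or above in both libraries. At the other end, RP11-131L12.3 was at 0 in both controls and at 10 and 10 with USP12, exactly at the limit, and RP11-499O7.7 had 3 and 3 against 12 and 13, the lowest ratio of the group at 4.60 (1.84 to 13.7). PTGES2-AS1 had 2 and 3 against 17 and 16, and GRASLND had 3 and 2 against 10 and 14. For such genes the step from control rests on few reads in each library.

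Whether a low count belongs to the gene it is assigned to depends on what else lies at the same place. On the opposite strand, 36 of the 62 overlapped another gene of the table, which was the case for 44.7% of all genes in it, and 18 overlapped a gene on the same strand, against 22.7%. Exonic bases were shared with a gene on the opposite strand in 25 cases and on the same strand in 9. The library kit keeps the strand, but the strand setting used for counting is not given in the sources used here, so reads of a gene and its antisense partner may not be fully separated, and their part in these counts was not tested.

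The partners on the opposite strand were often higher themselves. Of 20 tested genes that overlapped a selected gene on the opposite strand, 7 met the looser criterion in the higher direction, 35.0% against 2.92% of all genes tested, and 1 met it in the lower direction, while 0 reached an adjusted p under 0.05 by edgeR's quasi-likelihood test. In an analysis added after the data were seen, 8 and 9 were higher when control replicate 1 or 2 was left out, and 4 and 3 when USP12 replicate 1 or 2 was left out, of 20 to 22 tested. In each of these fits 1 group holds a single library that is assumed to vary as the other group does, and the spread comes from that other group alone. Of 8 tested partners on the same strand, 0 met the looser criterion in either direction. SRR, which shares 282 exonic bases with HNRNPA1P16, came nearest. It had 93 and 164 control counts against 215 and 262 USP12 counts, a log2 fold change of 1.06 (SE 0.46). Its part in the counts of HNRNPA1P16 was not tested. Of the 7 higher partners on the opposite strand, RNF157 and FOXJ1 overlap the same selected gene. If reads are shared between strands, choosing a gene that rose also chooses its partner. The 2.92% of all genes is therefore not a matched background. The partners are named here after their values were seen.

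GREM1, a secreted antagonist of bone morphogenetic proteins, had 7 and 26 control counts against 618 and 868 USP12 counts, with a log2 fold change of 5.69 (SE 0.67). GREM1-AS1, which shares 367 exonic bases with it, had 0 and 1 against 19 and 10. TSPAN14, a tetraspanin, had 764 and 839 against 4074 and 4059, and TSPAN14-AS1 had 0 and 1 against 11 and 12. In both places the antisense gene held far fewer counts than the gene on the other strand.

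DCDC2, a doublecortin-domain protein of microtubules, had 199 and 309 control counts against 945 and 1410 USP12 counts, with a log2 fold change of 2.36 (SE 0.42). KAAG1, on the other strand and sharing 602 exonic bases, was at 0 and 0 against 16 and 13. RNF157, a ubiquitin ligase, had 360 and 278 against 676 and 749, and FOXJ1, the transcription factor of motile cilia, had 0 and 9 against 39 and 57. RNF157-AS1 overlaps both of them and had 0 and 1 against 11 and 17. Abundant partners below the criterion also occurred: NUMA1, a nuclear mitotic protein that shares 2760 exonic bases with RP11-849H4.4 on the opposite strand, had 2940 and 3392 control counts against 3568 and 2938, while RP11-849H4.4 had 0 and 0 against 16 and 25. The other 2 partners that met the criterion were CAV2, opposite AC002066.1, and RNF144A, opposite GRASLND, at log2 fold changes of 1.47 (SE 0.36) and 1.26 (SE 0.47). The partner that met it in the lower direction was IFITM3, opposite RP11-326C3.11, at -3.11 (SE 0.44).

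CFAP298-TCP10L is a readthrough gene that shares exons with CFAP298 and TCP10L on the same strand. It had 0 and 0 control counts against 131 and 45 USP12 counts, while CFAP298 had 431 and 478 against 444 and 465 and TCP10L had 21 and 5 against 19 and 7. Neither of the genes it joins met the criterion, and its own USP12 counts differed 0.331-fold (0.23 to 0.467) between replicates 2 and 1. How reads are shared among the 3 is set by the counting, and its part was not tested.

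The pseudogenes raised the same point through sequence. USP12PY is a processed pseudogene of USP12 on chromosome Y (chrY:3682805-3683868, plus strand), and it was at 0 in both controls and at 46 and 50 with USP12, at least 35.3-fold higher. Aligned to the USP12 transcript, 1032 of 1068 columns were identical (96.6%), and the aligned stretch, bases 218 to 1285 of the transcript, lies almost wholly within the coding sequence at bases 173 to 1282 and crosses 8 exon junctions that the pseudogene lacks. The coding sequence is also what an expressed cDNA carries. The longest stretch without a difference was 107 bases.

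The sequences below show the stretch of 120 bases with the most differences found between them, 9 in all, which are in capitals. USP12PY is at chrY:3683206-3683325 on the plus strand of GRCh38, and the USP12 sequence is bases 620 to 739 of the transcript, both written 5′ to 3′.
USP12PY: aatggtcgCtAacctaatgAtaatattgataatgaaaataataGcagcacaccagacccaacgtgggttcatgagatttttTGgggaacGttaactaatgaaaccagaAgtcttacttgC
USP12: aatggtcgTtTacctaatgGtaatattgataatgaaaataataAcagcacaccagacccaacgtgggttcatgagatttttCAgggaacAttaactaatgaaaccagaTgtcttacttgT
Reads over this stretch can be told apart by several bases, and reads elsewhere by fewer or by none. Another copy, USP12PX, is 97.3% identical to USP12 over 1057 columns and had only 0, 0, 3 and 2 counts. It is therefore not among the 62 genes although its sequence is as close. The 46 and 50 counts of USP12PY stand beside 24235 and 32274 counts of USP12 in the same libraries, and whether reads of USP12 are among them was not tested.

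Of the other 5 pseudogenes, 4 had a parent gene found by alignment. HNRNPA1P16 had 3 and 3 control counts against 41 and 38 and is 94.1% identical to HNRNPA1, an RNA-binding protein with 2227 and 2809 control counts against 3390 and 3708. THRAP3P3 had 0 and 1 against 30 and 33 and is 91.5% identical to THRAP3, which had 1781 and 4253 against 2749 and 3051. RPLP1P6 (2 and 3 against 26 and 15) and CFL1P5 (0 and 0 against 16 and 10) are 91.1% and 92.0% identical to RPLP1 and CFL1, a ribosomal protein and an actin-severing protein. None of these 4 parent genes met the criterion in either direction, which sets them apart from USP12 as the parent of USP12PY. For XXyac-YM21GA2.4 no parent was found among the transcripts.

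Over the 62 genes the ratio of USP12 replicate 2 to replicate 1 had a median of 0.929 and lay within 1.5-fold for 43. The selection asked for at least 10 counts in both libraries, which leaves out genes present in only 1 of them. This agreement is therefore partly set by the selection, and the share within 1.5-fold over all genes was not counted. The 95% counting interval of the ratio left out 1 for 7 of the 62, against 44.2% of all genes with at least 10 counts in both libraries and 36.7% of those in the count range of the 62. The 62 lie mostly at the low end of that range, with a median lower USP12 count of 16, and counting intervals are wider at low counts. These shares were therefore not compared further. IL31RA had the highest ratio, 4.90 (2.54 to 10.4), and CFAP298-TCP10L the lowest. SULT1C2 (1.92), A1CF (1.64), LINC02124 (1.41) and RP11-483I13.6 (2.31) were also higher in replicate 2, and LINC02925 (0.538) was higher in replicate 1.

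**Figure D3:**
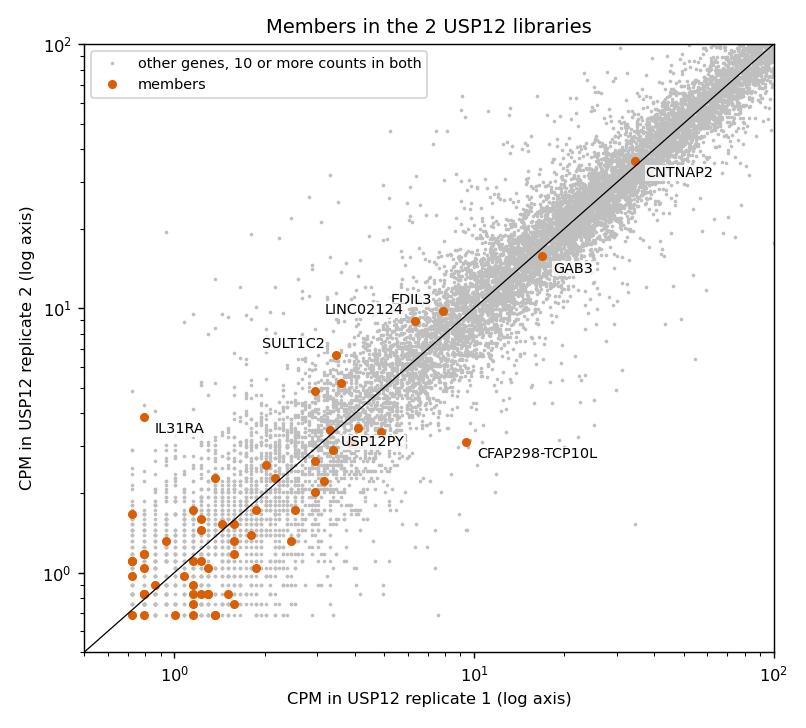
CPM of each gene in USP12 replicate 1 (horizontal) and replicate 2 (vertical), both on log axes that end at 100 CPM, for genes with at least 10 counts in both libraries, with the 62 selected genes in orange and the line of equal values drawn. CNTNAP2 and GAB3 lie on the line, and IL31RA and CFAP298-TCP10L lie farthest from it among the 62.

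Promoter windows were available for 28 of the 62 genes, 36 windows in all. Their median ratio of observed to expected CpG was 0.607, near the 0.579 of all 35116 windows and below the 0.814 of the 15402 windows of genes with at least 10 counts in both USP12 libraries. A ratio of at least 0.6 was reached by 19 windows (52.8%), against 48.9% of all windows and 76.1% of the windows of those expressed genes. By both measures the windows of the selected genes lay closer to all windows than to those of the expressed genes. Some of the 28 genes have several windows, and those of EDIL3 overlap, so the 36 windows are not independent.

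**Figure D4:**
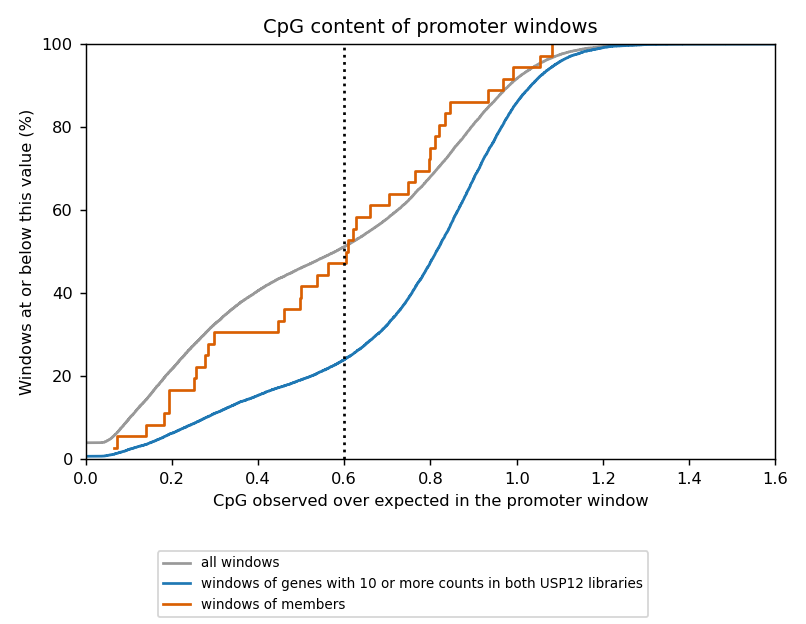
Cumulative share of promoter windows by the ratio of observed to expected CpG, for all windows (grey), windows of genes with at least 10 counts in both USP12 libraries (blue) and windows of the selected genes (orange). The orange curve runs near the grey curve, and at the dotted line of 0.6 the blue curve lies well below both.

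Short motifs were sought on both strands of the same windows, as letters only. TATAAA, the core of the TATA box, was in 5.56% of the 36 windows, in 11.5% of all windows and in 6.25% of the windows of expressed genes. In the same order, CCAAT was in 30.6%, 34.6% and 34.3%, the AP-1 motif TGACTCA in 5.56%, 4.95% and 3.54%, the SMAD motif CAGAC in 47.2%, 45.3% and 43.4%, and the E box CANNTG in 63.9%, 68.7% and 61.2%. The TEAD motif CATTCC was in 2.78%, 14.0% and 11.4%. The cAMP response element TGACGTCA (1.85% of all windows and 2.77% of those of expressed genes), the palindrome GTCTAGAC (0.202% and 0.156%) and the NF-kB decamer (0.191% and 0.208%) were in 0 of the 36 windows. With 36 windows, 1 window is 2.78%, and a match marks letters and not a bound site.

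The 62 genes lay on 22 chromosomes. The largest numbers were on chromosomes 17 and 5, with 6 each (9.68%, against 6.60% and 4.48% of the expressed rows). Chromosome 18 held 4 (6.45%), CCBE1, DSEL, CCDC102B and DOK6, against 1.44% of the expressed rows. DSEL and CCDC102B are 1198 kb apart, and CCDC102B and DOK6 346 kb. Between them, RP11-421N8.1 had 32 and 74 control counts against 70 and 63, and TMX3, a membrane thioredoxin, had 124 and 557 against 297 and 329, and both were below the criterion. The only other neighbours within 1 Mb were CTD-3035K23.7 and MARCHF10, 73.7 kb apart on chromosome 17. Most of the 62 genes were therefore isolated from one another.

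The nearest tested gene on each side of each of the 62 gave 121 distinct neighbours. Of these, 5 met the criterion in the higher direction (4.13%, against 2.92% of all genes) and 8 in the lower direction (6.61%, against 4.41%), 14 had an unadjusted p under 0.05, and 0 had an adjusted p under 0.05 by edgeR's quasi-likelihood test. Around the 10 protein-coding genes with the highest lower USP12 CPM, 1 of 20 neighbours was higher and 2 were lower. VCAN, the matrix proteoglycan versican, lies 358 kb from EDIL3 and had 30 and 17 control counts against 125 and 118, with a log2 fold change of 2.42 (SE 0.65). CDK2AP2, 10.3 kb from CABP2, was at -1.16 (SE 0.44).

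The other 4 neighbours in the higher direction are named after their values were seen. BMP2, a bone morphogenetic protein, lies 1103 kb from HAO1 and had 1 and 14 control counts against 182 and 212. ZEB2, a zinc-finger repressor known from epithelial-mesenchymal transition, lies 145 kb from TEX41 and had 30 and 10 against 65 and 101. SIM2, a transcription factor near AP000696.2, and RP11-806O11.1, near RP11-156K13.2, had log2 fold changes of 1.71 (SE 0.43) and 2.28 (SE 0.75). BMP2 was the highest of the 4 in this measure at 4.93 (SE 0.94).

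Relatives of the selected genes were read against the shares of all genes tested that met the criterion, 2.92% higher and 4.41% lower. Among genes that share a symbol stem with the 20 first protein-coding genes, 47 were in the table, 27 were tested, 1 met the criterion in the higher direction (MARCHF4, 2.07, SE 0.60) and 2 in the lower direction (SLC1A7, -6.57, SE 1.73, and DOK4, -1.25, SE 0.43), and 0 had an adjusted p under 0.05, with 4 at an unadjusted p under 0.05. CNTNAP1 was at 30.6 and 11.7 CPM in the control and 23.8 and 24.9 CPM in the USP12 libraries, CNTNAP3 at 42.3 and 74.0 against 48.9 and 62.1 CPM, CNTNAP3B at 115 and 130 against 104 and 93.2 CPM, and CNTNAP4 and CNTNAP5 were at 0 in all 4 libraries. GAB1 was at 3.86 and 2.49 against 3.74 and 5.61 CPM, GAB2 at 33.3 and 15.3 against 27.6 and 24.5 CPM, and GAB4 at 0. CNTNAP3B was lower in both USP12 libraries than in either control, below the criterion, while CNTNAP1, CNTNAP3, GAB1 and GAB2 overlapped between the groups. As the share of all genes tested that did not overlap was not counted, the separation of CNTNAP3B is not read as a result.

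Among 18 contactins, neurexins, neuroligins and contactin-associated genes, NLGN1 was 1 of the 62, and of 6 others tested 0 met the criterion. CNTN1, a contactin, was expressed throughout at 297 and 390 CPM in the control and 160 and 263 CPM in the USP12 libraries. In a list of 15 genes of GAB adaptor signalling, 12 were tested, 0 met the criterion in the higher direction and 1 in the lower direction, GRB2, the adaptor that binds GAB proteins, at -1.12 (SE 0.37). CSF1R, the receptor through which GAB3 is known in macrophages, had 5 and 5 control counts against 1 and 3. GAB3 was therefore present in cells with almost no reads of that receptor.

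Cancer-testis genes are silent in most adult tissues and often active in tumours. Of 26 such genes listed, 0 were among the 62, and cancer-testis genes outside the list were not sought. Of the 26, 6 were tested. In the higher direction 2 met the criterion, MAGEA3 and MAGEA6 at 2.50 (SE 0.52) and 2.74 (SE 0.50), and 3 met it in the lower direction, MAGEA12, XAGE1A and XAGE1B. MAGEA12 went from 387 and 472 control counts to 0 in both USP12 libraries. The genes of DNA methylation and silencing, 14 of 14 tested, had 0 beyond the criterion in either direction and a median log2 fold change of -0.04 against -0.06 for all genes tested. DNMT1, the maintenance methyltransferase, was at 62.2 and 115 CPM in the control and 109 and 134 CPM in the USP12 libraries, so its groups overlapped. DNMT3A, a de novo methyltransferase, was at 19.2 and 9.64 against 22.9 and 28.8 CPM, UHRF1, which recruits DNMT1 to replicated DNA, at 11.96 and 20.4 against 26.3 and 24.0 CPM, and the histone deacetylase HDAC2 at 28.3 and 43.1 against 65.3 and 54.8 CPM. DNMT3B was at 6.05 and 4.93 against 4.39 and 3.19 CPM. These 4 did not overlap between the groups, nor did SETDB1 of the same list, at 33.5 and 35.3 against 37.4 and 37.7 CPM. The other genes of the list overlapped, and all were below the criterion. How many of all genes tested did not overlap was not counted, so the separation is not read as a result.

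Markers of lung epithelium and of 7 other cell types were examined, none of them of liver. Epithelial keratins were abundant throughout, with KRT7 at 43062 and 43560 control counts against 42246 and 40698. KRT8 was at 80283 and 60214 against 38164 and 36312, and KRT18 at 39217 and 27006 against 19055 and 18205. EPCAM, an epithelial adhesion protein, was at 376 and 254 against 153 and 140. KRT8, KRT18 and EPCAM were lower in both USP12 libraries and below the criterion, while CDH1 overlapped, at 1724 and 1789 against 1063 and 1932. The share of all genes tested that did not overlap was not counted, so this separation is not read as a result. The lung epithelial list, most of whose reads were of keratins, summed to between 7475 and 12898 CPM in the control libraries. In the USP12 libraries its sum was between 6796 and 7317 CPM, with KRT19 in the lower direction (-2.14, SE 0.66). The lung genes of this list were low: NKX2-1, SFTPA1, SFTPB and SFTPC had 5 counts or fewer in every library. NAPSA had 26 and 7 control counts against 14 and 15. The neuronal list of 13 genes summed to 259 and 208 CPM against 277 and 264 CPM. Of its 7 tested genes 1, SNAP25, met the criterion in the higher direction (1.22, SE 0.47), and 4 of the 13 were at 0 in all libraries. The lymphoid lists were near 0 in every library, at 1.32 CPM or less for T and NK cells and 2.04 CPM or less for B cells.

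The myeloid list summed to 123 and 55.6 CPM against 78.5 and 62.1 CPM with 1 of 4 tested genes, LYZ, in the lower direction. The endothelial list summed to 15.4 and 8.59 CPM against 0.504 and 1.45 CPM, with both tested genes, CDH5 and PECAM1, in the lower direction. Fibroblast markers summed to 18.0 and 3.21 against 21.2 and 17.1 CPM with 0 of 2 tested beyond the criterion, and 6 muscle markers to 0.388 CPM or less in every library. Across the 8 lists, 1 gene met the criterion in the higher direction and 4 in the lower direction, and no list had its summed level in both USP12 libraries at more than 1.5 times the higher control.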

How the data were processed

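Total RNA of A549 cells was sequenced in 2 control and 2 USP12 libraries. The deposited values are raw counts of uniquely mapped fragments per gene. Before deposit the authors trimmed adaptors and removed rRNA with Seqtk, mapped reads to GRCh38 with HISAT2 2.0.4 and counted with StringTie 1.3.0. The annotation release and the strand setting are not given in the sources used here. The tables were joined by Ensembl identifier, of which 97.6% (62 of the 62 selected genes) were found in GENCODE release 44, the source of symbols, coordinates and gene classes.

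The members and the gene lists were chosen with earlier results of these data known. Genes were named by a fixed rule: USP12, CNTNAP2, GAB3, the 20 protein-coding and 5 other genes with the highest lower USP12 CPM, genes nearest the limits, genes with the same symbol stem, neighbours of the 10 first protein-coding genes, 4 lists (contactin and neurexin adhesion, GAB adaptor signalling, cancer-testis, DNA methylation and silencing) and 8 cell type marker lists. CPM used TMM-normalised library sizes. Genes kept by filterByExpr (15222, with 57 of the 62) were tested with edgeR 4.0.16 by its quasi-likelihood test with Benjamini-Hochberg adjustment, in R 4.3.3. DESeq2 1.42.0, edgeR's exact test, other size factors, no filter, a minimum of 10 counts in every sample, the replicate block and each library left out were the alternatives. The fit was tested on simulated counts. Ratios have exact 95% intervals (SciPy 1.17.1), and intervals and the floor of 3 counts cover counting error only. Pseudogenes were aligned to transcripts with BLAST 2.17.0. Promoters came from the RefSeq table of GRCh38.p14, matched by symbol or gene identifier for 28 of the 62. Values of a few single genes are not reported here.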

Additional observations from a re-analysis of the deposited data

How the results depend on the processing

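The number of genes selected depends on the limits. With a control ceiling of 1 or 5 counts it was 33 or 108, and with a USP12 minimum of 5 or 20 counts it was 214 or 23. Scaling by library total or by TMM kept 56 of the 62, no prefix left out gave 66, and leaving out each library in turn gave 143 to 340. Dropping the prefix condition or a library only loosens the selection, so the 62 were bound to remain. Across the whole table, genes higher and lower at an adjusted p under 0.05 numbered 167 and 361 with no filter on low counts (688 and 1173 by the looser criterion), 133 and 273 with DESeq2's Wald test, and 167 and 262 with edgeR's exact test. Without each library in turn they ranged from 12 to 2550 and from 28 to 2612, and by the criterion from 159 to 2495 and from 300 to 2134. Among family, list and neighbour genes, where 0 were called in the reported fit, 3 higher and 5 lower were called with no filter (15 higher by the criterion, against 8), and 4 and 5 by DESeq2's Wald test or edgeR's exact test. Without each library they ranged from 0 to 42 and from 2 to 24, and by the criterion from 5 to 39 and from 5 to 27. The USP12 log2 fold change passed the adjusted threshold with no filter (6.33), DESeq2's Wald test (6.31), edgeR's exact test (6.32) and each library left out (5.85 to 7.06). With a library left out, its group holds 1 library that is assumed to vary as the other group does, so those p-values rest on the spread of the other group alone and are not read as support. The share of background promoter windows at a CpG ratio of 0.6 or more was 76.1% for expressed genes. Opposite-strand partners that met the criterion ranged from 3 to 9 higher and from 1 to 3 lower without each library. The 28 tested genes named outside the selection as meeting the criterion kept the sign of their log2 fold change in all 271 refits. These genes were named because they met the criterion in the same counts. An unchanged sign was therefore largely set in advance and is not read as support. Where calls differed between fits, the cause was not tested.

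The replicate numbers are shared by both groups, but no label says what a number stands for, and the deviations of same-numbered libraries correlated at 0.152 over 15222 genes. With the replicate block, 153 genes were called higher and 251 lower, with 3 and 5 of the family, list and neighbour genes called (13 higher by the criterion) and USP12 at a log2 fold change of 6.43. Depth also limits the group: on the TMM-normalised scale 3 counts are 0.166 to 0.227 CPM, so a gene at 0 may still be present below that level.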
